A study of Mus musculus with 8 samples.

Results

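The Kruppel-like factors are a family of zinc finger transcription factors that bind GC-rich and CACCC-containing DNA, and 10 of the family's genes (Klf2, Klf3, Klf4, Klf5, Klf6, Klf7, Klf9, Klf10, Klf11 and Klf13) were followed here by name among the 22609 gene symbols counted in mouse dental papilla cells. The members were chosen by their symbols with earlier results of these data known, and the study had already reported Klf10 lower after loss of Bmp2. All 10 passed the filter on low counts. Other genes of the family that were counted are given further below. RNA was sequenced from iBmp2 fx/fx cells, immortalized cells that carry the floxed Bmp2 gene, and from iBmp2 ko/ko cells, in which Bmp2 is deleted, with 1 library per genotype after 6, 24, 48 and 72 h of culture. The 8 libraries held between 25890110 and 32415665 reads counted on genes, with a median of 29985177. Each genotype is a single cell line with 1 library per time, so the 3 libraries per genotype that were compared (6, 48 and 72 h) differ in culture time. Without a block, p-values measure the spread over these times. With culture time as a block, they measure how far the genotype difference varies between the times. Neither measures the spread over separately derived lines. How the deletion was made, and whether either line is a clone, is not given in the sources used here.

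Family members share a DNA-binding end of zinc fingers and differ in the rest of the protein. Klf3, with Klf8 and Klf12, recruits the co-repressor Ctbp. Klf9, Klf10, Klf11 and Klf13 recruit the Sin3 co-repressor, and Klf10 and Klf11 are known as early genes of the TGF-beta response. Klf2, Klf4, Klf5, Klf6 and Klf7 act mainly as activators, and Klf2 and Klf4 lie downstream of the kinase Erk5 and its Mef2 partners. Dental papilla cells are the mesenchyme from which the dentin-forming odontoblasts arise.

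Because the zinc fingers are alike, the members' coding sequences were compared to see whether 50-base reads could be assigned to the wrong member. Over the 45 member pairs, the fewest mismatches between any aligned pair of 50-base coding windows ranged from 6 to 15, with a median of 10, and 0 pairs had a window with 2 or fewer. No 50-base window of a member's transcripts was shared, on either strand, with the GENCODE M1 transcripts of another protein-coding gene, and transcripts of other kinds of gene were not searched. The closest windows of 3 pairs are printed from GENCODE M1 transcripts on mm9, with the bases that differ in capitals. They are the closest pair of all, the pair of Erk5 targets and the pair of TGF-beta early genes. Positions count from the first base of the coding sequence.
Klf6, bases 772 to 821: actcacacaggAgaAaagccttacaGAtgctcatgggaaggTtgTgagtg
Klf7, bases 721 to 770: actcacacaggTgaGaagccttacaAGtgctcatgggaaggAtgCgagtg
Klf2, bases 988 to 1037: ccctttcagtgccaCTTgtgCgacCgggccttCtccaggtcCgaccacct
Klf4, bases 1375 to 1424: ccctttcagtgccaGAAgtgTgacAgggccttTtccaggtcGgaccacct
Klf10, bases 1168 to 1217: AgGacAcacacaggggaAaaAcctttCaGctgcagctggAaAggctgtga
Klf11, bases 1216 to 1265: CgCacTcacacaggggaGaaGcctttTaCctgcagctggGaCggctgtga
The Klf6 and Klf7 windows differ at 6 bases, the Klf2 and Klf4 windows at 7 and the Klf10 and Klf11 windows at 9. Of the 10 members, Klf7 alone shares exon bases with other genes: 3202 of its 8133 exon bases overlap Gm17427 and Gm13748 on the opposite strand, and the strand setting of the counting is not given, so Klf7 reads cannot be separated from reads of those genes.

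The labelled genotype could not be checked on Bmp2 itself, since 1 read fell on Bmp2 in the fx/fx library of 24 h and 0 in each of the other 7. The ko/ko library of 24 h stood apart from the other ko/ko libraries. For 65.3% of all genes tested its level lay nearer the fx/fx mean than the ko/ko mean, and it is shown apart below. The summed level of 7 mesenchyme markers was 7170 to 8580 counts scaled to library size (CPM) in fx/fx and 9520 to 13100 CPM in ko/ko libraries of 6, 48 and 72 h. Most of that sum was Vim, Col1a1 and Col1a2, and 4 of the 7 markers were above 0 in log2 fold change and 3 below. No marker of that list was called in edgeR or limma, 2 had an unadjusted p under 0.05 in edgeR (Vim and Msx1), and DESeq2 called Msx1 lower. With culture time as a block Vim (0.68, adjusted p = 0.0449) and Col1a2 (0.58, adjusted p = 0.0162) were called higher and Msx1 (-0.80, adjusted p = 0.0222) lower. Over all genes, 22.7% were called with the block, 14% had an unadjusted p under 0.05 in edgeR, and DESeq2 called 6.65%. Over the libraries of 6, 48 and 72 h the ranges of 4 markers did not overlap between the genotypes, beside 20% of all genes. Vim and Pax9 were higher in ko/ko and Msx1 and Twist1 lower. Over all 8 libraries only Twist1 of this list stayed separated, beside 3.75% of all genes. The 5 odontoblast markers summed to 128 to 245 CPM in fx/fx and 86.7 to 117 CPM in ko/ko. Most of that sum was Nes (114 to 181 CPM in fx/fx and 85.3 to 115 CPM in ko/ko), while the Phex difference was 0.46 on the log2 scale (edgeR adjusted p = 0.713), toward ko/ko. Nes was called lower with the block (-0.51, adjusted p = 0.0125 in edgeR) and not without it (adjusted p = 0.346). Dspp, the gene of the main dentin phosphoprotein, had at most 1 read in any library. Alpl, the alkaline phosphatase of mineralizing cells, had 403, 1641 and 1887 reads in fx/fx at 6, 48 and 72 h and 19, 17 and 35 in ko/ko, and 1053 and 345 in the 24 h pair. It was called lower (-5.61, adjusted p = 0.0153 in edgeR). The 4 epithelial markers summed to 1.04 to 1.81 CPM in fx/fx and 0.281 to 0.895 CPM in ko/ko. The 4 endothelial markers gave 1.99 to 3.31 and 1.56 to 3.63 CPM. The 4 blood cell markers each had 3 or fewer reads in every library.

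In the genotype comparison, Klf10 was the member that passed the test, and it was lower in the iBmp2 ko/ko cells, at 71.8 ± 23.9 CPM against 225 ± 16.4 CPM in iBmp2 fx/fx (mean ± SD, n = 3 each). Klf2 had the largest difference upward, at 17.7 ± 8.34 CPM in ko/ko against 5.98 ± 2.64 CPM in fx/fx, and did not pass after adjustment. Across all genes, 2.22% were called at an adjusted p of at most 0.05 and 1.3% were called lower, against 1 of the 10 members (edgeR, quasi-likelihood, 13121 genes tested). The median log2 fold change of the members was -0.38, beside 0.03 over all genes tested. Klf1, Klf15 and Klf16, family genes outside the 10, lay above 0, so this median does not describe the whole family. With culture time as a block, 22.7% of all genes were called against 4 of 10 members, which were Klf2 above (11.3% of all genes) and Klf3, Klf4 and Klf10 below (11.4%). At the limit in the study's methods (p under 0.05, taken here as unadjusted, and a log2 difference of more than 1 in size), 7.35% of all genes and 2 members (Klf2 and Klf10) were called. A figure legend of the study gives a Q value of at most 0.05 in place of that p. In bulk RNA, fewer cells that express a gene and less of its RNA per cell cannot be told apart.

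**Figure D1:**
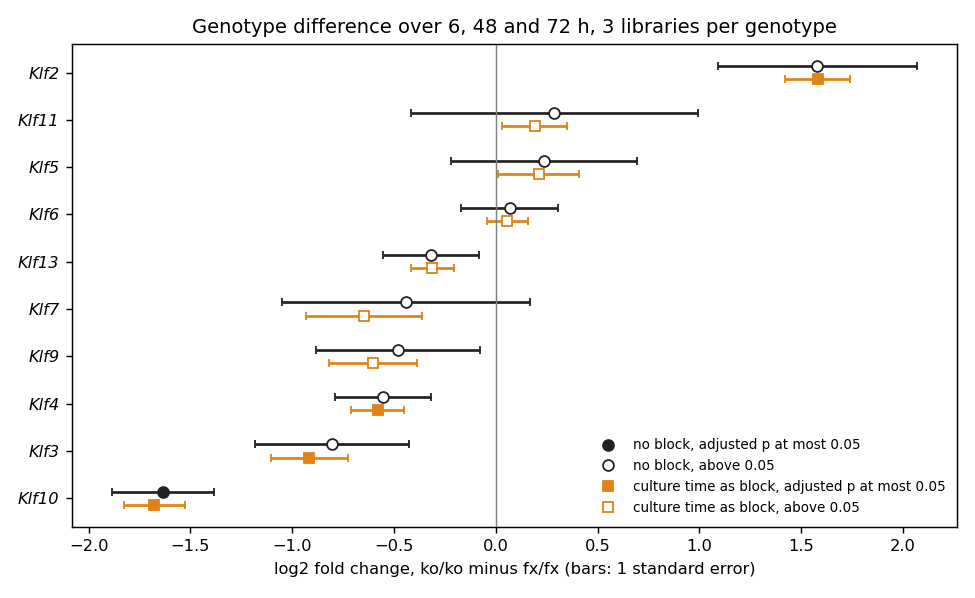
Log2 fold change of each Kruppel-like factor, ko/ko minus fx/fx (horizontal axis, bars of 1 standard error), over the libraries of 6, 48 and 72 h without a block and with culture time as a block. Filled points have an adjusted p of at most 0.05. Klf10 is filled in both fits, and Klf2, Klf3 and Klf4 in the blocked fit.

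Klf10 (mm9 chr15:38221219-38230464, minus strand), the TGF-beta inducible repressor that was named TIEG1, stood at 207, 228 and 239 CPM in the fx/fx libraries of 6, 48 and 72 h and at 53.1, 63.5 and 98.6 CPM in the ko/ko libraries of the same times. All 3 ko/ko values lay below all fx/fx values, and the lowest fx/fx value was above the highest ko/ko value by more than the range of the ko/ko group. At 24 h the fx/fx library had 205 CPM and the ko/ko library 204 CPM. The log2 fold change was -1.63 (SE 0.25, unadjusted p = 0.000288, adjusted p = 0.0243 in edgeR, lower in 3 of 3 time pairs) and -1.68 (SE 0.15, adjusted p = 0.000556) with the time block. Over all 8 libraries the log2 fold change was -1.04 with an adjusted p of 0.483 in edgeR, where 0% of all genes were called.

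In the fit without a block, the call for Klf10 needed nearly every library. Each removal left fewer libraries for every gene, and the share of all genes called there is not given here. Without the ko/ko library of 72 h it was kept, at -1.94 (adjusted p = 0.00759 in edgeR). The other single removals each ended it in edgeR, at -1.69 without the fx/fx library of 6 h (adjusted p = 0.0766), -1.43 without the ko/ko library of 6 h (0.087), -1.63 without fx/fx 48 h (0.127), -1.55 without ko/ko 48 h (0.141) and -1.59 without fx/fx 72 h (0.0686). The direction was the same in all of them.

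**Figure D2:**
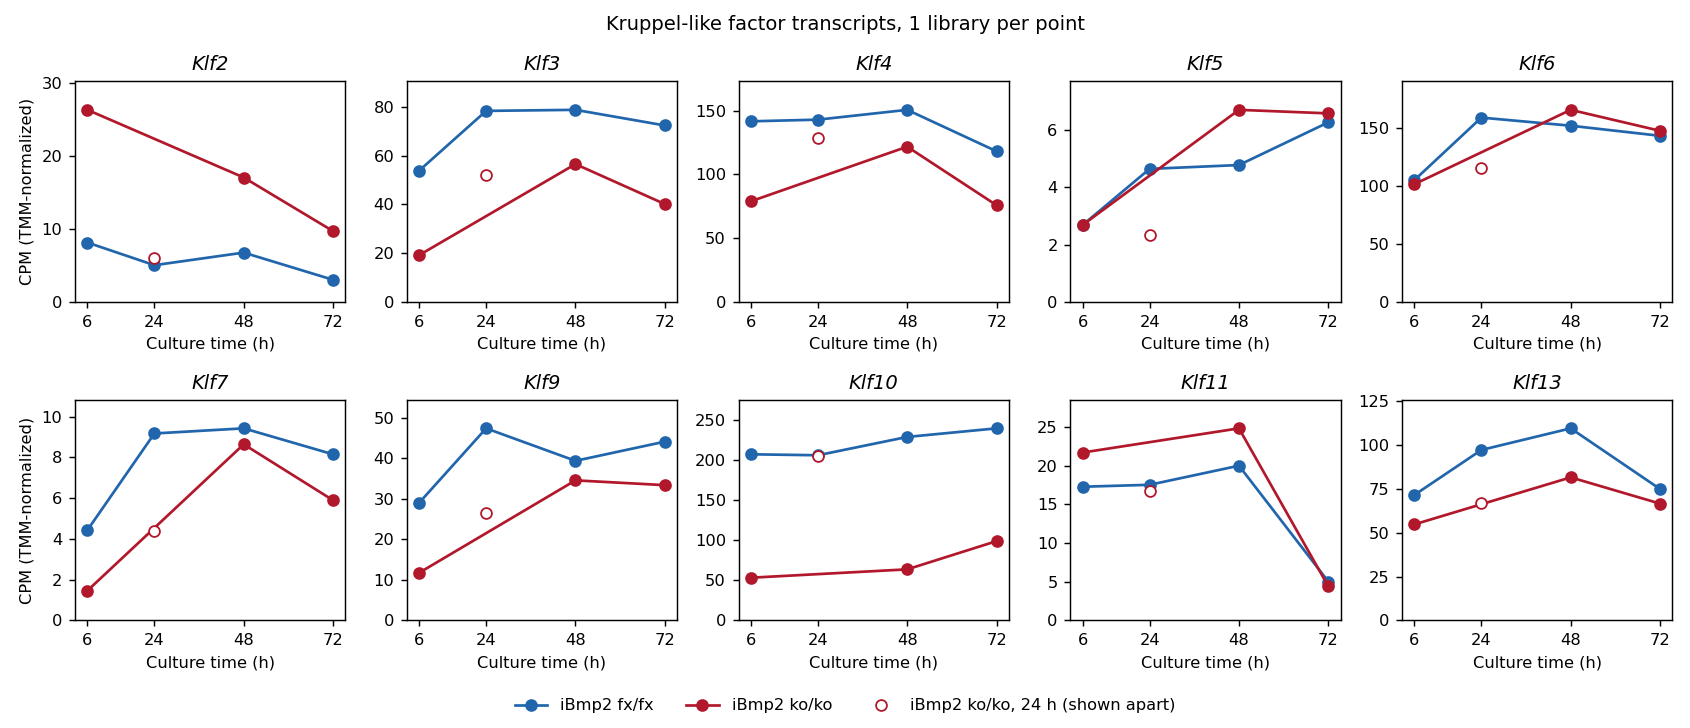
TMM-normalized CPM of each member (vertical axes, each starting at 0) against culture time in hours (horizontal axes), 1 library per point, with the ko/ko library of 24 h as an open symbol. Klf10 lies between 53.1 and 98.6 CPM in the ko/ko libraries of 6, 48 and 72 h and between 205 and 239 CPM in all 4 fx/fx libraries, and Klf2 is higher in ko/ko at each time.

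None of the other Sin3-recruiting members passed the test without or with the block. Klf9, known as a glucocorticoid and thyroid hormone responsive gene, had 29.0, 39.3 and 44.0 CPM in fx/fx at 6, 48 and 72 h and 11.7, 34.5 and 33.3 CPM in ko/ko. It was lower in ko/ko at each time, but the groups overlapped, and its log2 fold change was -0.48 (SE 0.40, adjusted p = 0.678 in edgeR; block -0.60, adjusted p = 0.0821). Leaving out 1 library moved that difference to between -0.71 (without ko/ko 48 h) and -0.11 (without ko/ko 6 h). Klf13, a factor known from T cells and the heart, had 71.5, 110 and 74.9 CPM in fx/fx and 54.7, 81.6 and 66.6 CPM in ko/ko. Its values were also lower at every time, with overlapping groups and a log2 fold change of -0.32 (SE 0.24, adjusted p = 0.634 in edgeR), which was -0.48 without ko/ko 48 h, -0.18 without ko/ko 6 h and -0.11 without fx/fx 48 h. Klf11, a TGF-beta early gene like Klf10, had 17.3, 20.0 and 5.02 CPM in fx/fx and 21.7, 24.8 and 4.41 CPM in ko/ko, with a log2 fold change of 0.29 (SE 0.70, adjusted p = 0.908). The drop of Klf11 at 72 h was shared by both genotypes, and was to 0.290 of the 6 h level in fx/fx and to 0.203 of it in ko/ko.

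Klf3 (mm9 chr5:65194628-65221368, plus strand), the Ctbp-recruiting repressor known for restraining adipocyte differentiation, had 53.9, 78.8 and 72.4 CPM in fx/fx and 19.2, 56.6 and 40.2 CPM in ko/ko. The ko/ko value was lower at each time, with the highest ko/ko value just above the lowest fx/fx value. The log2 fold change was -0.81 (SE 0.38, adjusted p = 0.411 in edgeR), and -0.92 (SE 0.19, adjusted p = 0.0138) with the time block. Without the ko/ko library of 6 h it was -0.47, and without that of 48 h -1.19. Klf12, another Ctbp-recruiting member, was measured with few reads, as 4, 1 and 2 in the fx/fx libraries of 6, 48 and 72 h and 19, 49 and 23 in the ko/ko libraries. Summed over these libraries it had 7 and 91 reads, a ratio of 14.2 (counting interval 6.62 to 36.3). Klf12 met the filter on low counts only through the ko/ko libraries, where it was high, so its counts are given as a description with no test. At 24 h each genotype had 1 read.

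Klf2 (mm9 chr8:74842932-74845555, plus strand), the flow-responsive factor of endothelium and of resting T cells, had 8.14, 6.76 and 3.03 CPM in fx/fx and 26.3, 17.1 and 9.71 CPM in ko/ko. The ko/ko values were all higher than the fx/fx values, although they stood on 795 reads at most. At 24 h the levels were 5.03 CPM in fx/fx and 6.08 CPM in ko/ko, so the ko/ko library of 24 h fell within the fx/fx range. The log2 fold change was 1.58 (SE 0.49, unadjusted p = 0.0139, adjusted p = 0.206 in edgeR), and 1.58 (SE 0.16, adjusted p = 0.000818) with the time block. DESeq2, which called 6.65% of all genes, gave an adjusted p of 0.0282. The summed endothelial markers overlapped between the genotypes, as given above, but 2 of the 4 markers were separated in opposite directions. Tek, the angiopoietin receptor, had 12, 20 and 13 reads in fx/fx and 34, 77 and 18 in ko/ko (log2 fold change 1.62, adjusted p = 0.246 in edgeR and 0.0204 with the block), and Kdr, a VEGF receptor, had 81, 63 and 38 reads against 23, 28 and 15 (-1.32, adjusted p = 0.191 and 0.0166 with the block). In the 24 h pair Tek was at 0.785 CPM in fx/fx and 0.148 CPM in ko/ko, and Kdr at 1.64 and 1.85 CPM. Over all 8 libraries neither Tek nor Kdr was separated. Pecam1 had at most 13 reads and Cdh5 at most 4 in any library. The part of endothelial markers in the Klf2 values was not tested.

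Klf4 (mm9 chr4:55540013-55545347, minus strand), which is known from epithelial barrier formation and from pluripotency, had 142, 151 and 118 CPM in fx/fx and 78.9, 122 and 75.8 CPM in ko/ko. It was lower in ko/ko at each time, and the highest ko/ko value exceeded the lowest fx/fx value. The log2 fold change was -0.55 (SE 0.24, adjusted p = 0.358 in edgeR), and -0.58 (SE 0.13, adjusted p = 0.0178) with the time block. The summed level of the epithelial markers was also lower in ko/ko over the libraries compared, at a level near 1 CPM. Most of that sum was Krt14, at 1.09 CPM in fx/fx and 0.41 CPM in ko/ko. Krt14 alone of these markers met the filter (log2 fold change -1.38, adjusted p = 0.275 in edgeR and 0.0414 with the block). In the 24 h pair the sum went the other way, at 0.75 CPM in fx/fx and 1.78 CPM in ko/ko. The part of the epithelial markers in the Klf4 values was not tested.

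Of the remaining activators none passed the test without or with the block. Klf6, a gene of wound and injury responses, had 105, 152 and 143 CPM in fx/fx and 102, 166 and 148 CPM in ko/ko (log2 fold change 0.07, SE 0.24, adjusted p = 0.939 in edgeR). Klf5, known from gut epithelium and smooth muscle, had 2.68, 4.78 and 6.26 CPM in fx/fx and 2.68, 6.70 and 6.58 CPM in ko/ko (0.24, SE 0.46, adjusted p = 0.877). Klf7, known from neurons, had 4.43, 9.43 and 8.15 CPM in fx/fx and 1.46, 8.64 and 5.90 CPM in ko/ko (-0.44, SE 0.61, adjusted p = 0.823). The Klf7 values were lower in ko/ko at every time, but the groups overlapped.

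Over the libraries of 6, 48 and 72 h, the genotype ranges of Klf2 and Klf10 did not overlap, 2 of the 10 members, and 20% of all genes tested had non-overlapping ranges. Over all 8 libraries this held for Klf10 only, against 3.75% of all genes, and there the ko/ko library of 24 h (204 CPM) lay directly under the lowest fx/fx library (205 CPM).

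At single times, where 1 library stood against 1 library with no replicate, the ko/ko level was lower for 7 of the 10 members after 6 h (median difference in log2 CPM -0.61), 9 after 24 h (-0.50), 6 after 48 h (-0.16) and 7 after 72 h (-0.29). The 24 h pair thus had the most members lower in ko/ko, although Klf10 was at 0.994 times the fx/fx level there (95% counting interval 0.958 to 1.03). The ratio of ko/ko to fx/fx for Klf10 was 0.257 (0.243 to 0.271) at 6 h, 0.278 (0.265 to 0.292) after 48 h and 0.413 (0.394 to 0.432) by 72 h. Klf2 had ratios of 3.24 (2.81 to 3.74) after 6 h, 1.21 (0.958 to 1.52) after 24 h, 2.52 (2.15 to 2.97) after 48 h and 3.20 (2.50 to 4.13) after 72 h. These intervals cover counting error only. Klf3, Klf7 and Klf9 had their lowest ratios at 6 h, 0.356, 0.329 and 0.405, and their highest at 48 h, 0.718, 0.917 and 0.878. The ko/ko library of 24 h lay nearer the fx/fx mean for 6 of the 10 members (Klf2, Klf3, Klf4, Klf5, Klf6 and Klf10), close to the 65.3% of all genes.

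**Figure D3:**
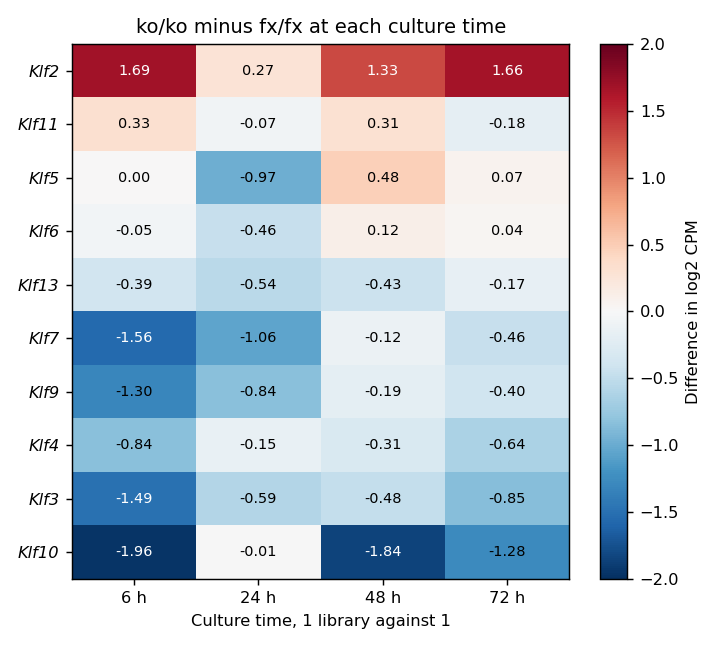
Difference in log2 CPM, ko/ko minus fx/fx, for each member (rows) at each culture time (columns), 1 library against 1. Klf2 is above 0 at all 4 times, Klf3, Klf4, Klf7, Klf9 and Klf13 are below 0 at all 4, and Klf10 is near 0 at 24 h.

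Culture time was tested as a slope on the log2 of hours, adjusted for genotype. No member passed after adjustment, and neither did any of the 13121 genes in edgeR, whereas DESeq2 called 3 members (Klf5, Klf7 and Klf9) and 7.51% of all genes. At an unadjusted p under 0.05, which 21.1% of all genes reached, 6 members were past the limit in edgeR, 5 of them with a positive slope (10.9% of all genes) and Klf2 with a negative one (10.2%). Without the ko/ko library of 6 h, 1 member reached that limit. The share of all genes in that fit is not given here, so this count shows nothing particular to the members. In the same fit the slopes of Klf3, Klf7 and Klf9 given next went to 0.11, 0.25 and 0.15. Without the fx/fx library of 6 h they went to 0.37, 0.65 and 0.45. The log2 change per doubling of time was 0.45 for Klf7 (SE 0.14, adjusted p = 0.2), 0.35 for Klf5 (SE 0.08, adjusted p = 0.178), 0.29 for Klf9 (SE 0.08, adjusted p = 0.197), 0.25 for Klf3 (SE 0.09, adjusted p = 0.217), 0.15 for Klf6 (SE 0.05, adjusted p = 0.2) and -0.31 for Klf2 (SE 0.10, adjusted p = 0.203). From 6 to 48 h Klf3 went to 1.46 times its first level in fx/fx and 2.95 times in ko/ko, Klf7 to 2.13 and 5.93 times and Klf9 to 1.36 and 2.94 times. The difference in slope between genotypes passed the test for 0 members and 0 genes after adjustment in edgeR, while 0.48% of all genes and 0 members had an unadjusted p under 0.05. The slope difference with the lowest p among the members was that of Klf9, 0.30 per doubling (adjusted p = 1 in edgeR).

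Levels of different members were compared per length, as counted reads scaled to exon length and library size (RPKM). In fx/fx cells Klf10 was the most abundant at 58.2 ± 2.08 RPKM (mean ± SD, n = 3), followed by Klf4 at 44.4 ± 6.81, Klf6 at 31.3 ± 5.15 and Klf3 at 25.9 ± 4.39 RPKM. Klf13 (12.8 ± 3.21) and Klf9 (11.3 ± 1.91) came next, then Klf11, Klf2 and Klf5 at 2.61 to 3.35 RPKM, and Klf7 was last at 0.888 ± 0.301 RPKM. Among neighbours in this order the ranges overlapped between Klf6 and Klf3, Klf13 and Klf9, Klf11 and Klf2, and Klf2 and Klf5. In ko/ko cells the order began with Klf6 at 32.7 ± 7.52, Klf4 at 30.2 ± 8.75, Klf10 at 18.6 ± 5.52 and Klf3 at 14.7 ± 7.16 RPKM. Klf2 reached 9.68 ± 4.80 RPKM there, and all neighbours in that order overlapped in range except Klf5 and Klf7.

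The summed level of the 10 members per length was 182, 206, 215 and 185 RPKM in the fx/fx libraries of 6, 24, 48 and 72 h and 107, 177, 162 and 127 RPKM in the ko/ko libraries. Klf10 made up 30.7, 25.8, 27.6 and 32.0% of the sum in fx/fx and 13.3, 31.4, 10.4 and 19.5% in ko/ko. The share of Klf2 was 13.7, 1.93, 5.76 and 3.98% in ko/ko, against 0.841 to 2.50% in fx/fx. Klf4 took similar shares in both, 19.8 to 26.3% in fx/fx and 18.8 to 24.8% in ko/ko.

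**Figure D4:**
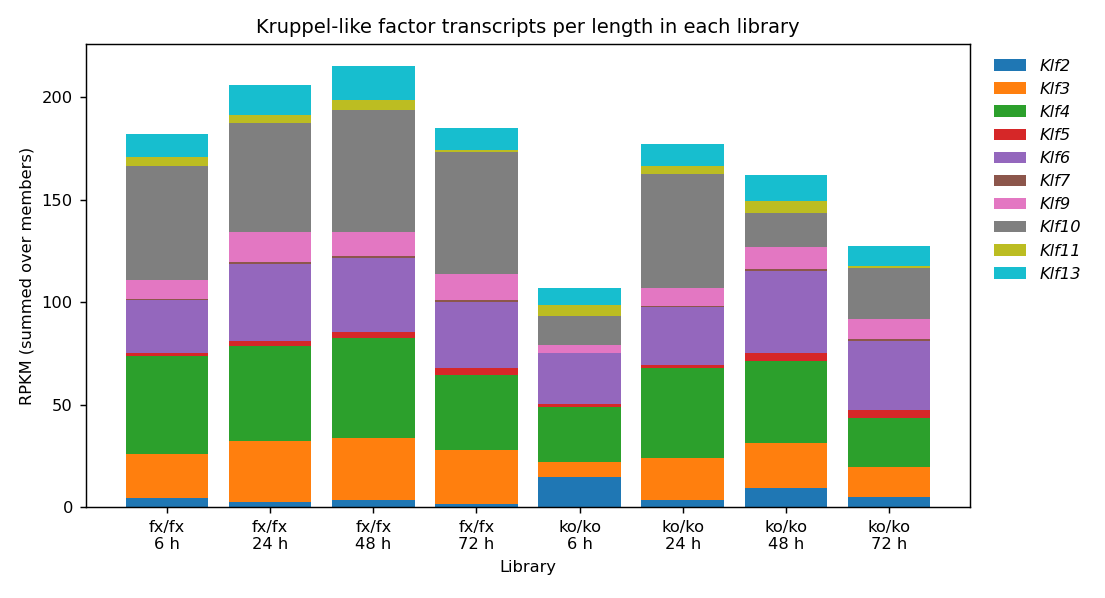
Stacked RPKM of the 10 members (vertical axis) in each of the 8 libraries (horizontal axis), stacked by member. The fx/fx columns reach 182 to 215 RPKM, and the ko/ko columns reach 107 to 177 RPKM, with the Klf10 segment narrow in ko/ko at 6 and 48 h.

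Lists of genes around the members were read beside them. The background over all genes was 2.22% called in edgeR, 14% at an unadjusted p under 0.05, 22.7% called with the time block (11.4% lower) and 6.65% called by DESeq2. Leaving Sp7 aside, none of the 5 other Sp factors that met the filter, the sister family with the same kind of zinc fingers, was called in edgeR, DESeq2 or limma, and Sp1 had an unadjusted p under 0.05 in edgeR. Sp7, the osteoblast and odontoblast factor, had 18, 90 and 93 reads in fx/fx and 2, 3 and 5 in ko/ko at 6, 48 and 72 h, 18.4-fold lower on the sums (counting interval 9.8 to 38.9). It met the filter on low counts only through the fx/fx libraries, where it was high, so no test is given for it. The ko/ko library of 24 h had 18 Sp7 reads, against 9 in fx/fx. Sp1, the widely expressed founder of that family, was at -0.49 (adjusted p = 0.333 in edgeR), and was called lower with the block, at -0.50 (adjusted p = 0.0194). Of the 9 early TGF-beta response genes, Skil, a Smad co-repressor, was called lower (log2 fold change -1.66, SE 0.27, adjusted p = 0.0294 in edgeR). Smad7, the inhibitory Smad, was at -1.89 (adjusted p = 0.0621), and all 9 values lay below 0 with a median of -0.41, beside 0.03 over all genes. Smad7 and Skil were both called lower by DESeq2 and by limma, and genes called lower with the time block included Smad7, Skil and Bhlhe40. Skil had 165, 151 and 157 CPM in fx/fx at 6, 48 and 72 h and 30.7, 53.7 and 64.0 CPM in ko/ko, and Smad7 had 96.4, 89.1 and 105 CPM against 14.8, 19.9 and 43.2 CPM. Both were separated by genotype in these libraries, as Klf10 was, beside 20% of all genes. In the 24 h pair the levels were 159 and 165 CPM for Skil and 72.4 and 90.7 CPM for Smad7, fx/fx first, so that neither was lower in ko/ko there, and 4 of the 9 genes were. After 6 and 48 h all 9 were lower, and after 72 h 6 were.

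Of 6 tested genes of the Erk5 and Mef2 axis none was called in edgeR and 1 had an unadjusted p under 0.05. Mef2d, a transcription factor of the Mef2 family, was at -0.79 (adjusted p = 0.0843 in edgeR and 0.00649 with the block), in the opposite direction to Klf2 and the same direction as Klf4, and DESeq2 called it lower where limma did not. With the block Mef2a was called lower as well, at -1.17 (adjusted p = 0.0392, against -0.98 and 0.395 in edgeR without the block). Over 6 libraries the ranges of Mef2a and of Mef2d did not overlap between the genotypes, beside 20% of all genes, and over 8 libraries both overlapped. Mef2a had 8.15, 32.44 and 18.45 CPM in ko/ko at 6, 48 and 72 h, against 38.64 to 39.69 CPM in fx/fx. None of 15 serum early response genes was called in edgeR, 3 had an unadjusted p under 0.05, and with the time block 6 were called lower (Fos, Junb, Egr3, Myc, Ier3 and Fosl1). DESeq2 called Fos and Junb, and limma called 0 of them. Among 9 cofactors and ubiquitin ligases that bind Kruppel-like factors and 7 tested glucocorticoid response genes none was called in edgeR, with 1 and 0 genes at an unadjusted p under 0.05. DESeq2 and limma called 0 in either list. With the block the co-repressor deacetylase Hdac2 rose (0.50) and the ubiquitin ligase gene Fbxw7 fell (-0.71), and Tsc22d3 rose and Cebpd fell among the glucocorticoid genes. Of the other Kruppel-like genes Klf1, Klf12, Klf15 and Klf16 met the filter on low counts. Klf1 (0.52), Klf15 (0.76) and Klf16 (0.37) lay above 0 in log2 fold change, opposite to the members' median of -0.38. These genes were not called without or with the block. In the 24 h pair Klf15 and Klf16 were lower in ko/ko and Klf1 was higher. Klf8, Klf14 and Klf17 had 0 to 5 reads in each library.

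RefSeq promoter sequences on GRCm38.p6 were available for 8 of the 10 members, and Klf5 and Klf10 have no entry. In the 250 bases before the start, the CACCC box (CACCC) was present in 5 of these 8 and in 52% of the 32851 windows, and the GC box (GGGCGG) in 7 of 8 and 32.7% of windows. The CCAAT box (CCAAT) was present in 4 of 8 and 33.8%, the Smad element core (CAGAC) in 1 of 8 and 42.2%, the TATA box (TATAAA) in 0 of 8 and 12.4%, and the Mef2 site (CTA and TAG with any 4 bases between them) in 1 of 8, Klf2, and 3.2%. Both strands were searched, and matches may overlap. A match describes these letters and is not shown to be a site of binding. The windows of Klf2 and Klf4, the members downstream of Erk5 and Mef2, are printed with CACCC boxes, GC boxes and Mef2 sites in capitals. Each was found at 1 place of mm9, Klf2 at chr8:74842711-74842960 on the plus strand and Klf4 at chr4:55545348-55545597 on the minus strand.
Klf2: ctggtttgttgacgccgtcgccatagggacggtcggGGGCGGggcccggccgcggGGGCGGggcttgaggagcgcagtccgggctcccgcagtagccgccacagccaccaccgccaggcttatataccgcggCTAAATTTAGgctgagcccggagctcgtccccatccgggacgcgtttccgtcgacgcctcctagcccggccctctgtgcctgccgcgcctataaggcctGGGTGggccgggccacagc
Klf4: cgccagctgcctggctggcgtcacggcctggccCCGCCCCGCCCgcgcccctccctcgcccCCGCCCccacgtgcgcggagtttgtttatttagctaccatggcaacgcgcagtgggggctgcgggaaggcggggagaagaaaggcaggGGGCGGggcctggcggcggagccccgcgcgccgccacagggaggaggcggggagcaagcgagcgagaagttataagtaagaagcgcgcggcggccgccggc
The Klf2 window holds the Mef2 site, 2 GC boxes and 1 CACCC box, and its last 29 bases lie within the gene as GENCODE gives it. The Klf4 window holds 4 GC boxes, 2 of them overlapping, and neither of the other motifs in capitals.

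Across the 7 libraries without ko/ko 24 h, 7 members ranged over more than 1 in log2 CPM. For each, the 2 tested genes with the most similar pattern were found by the root mean square (RMS) difference in mean-centred log2 CPM, which is a description over libraries that share genotype and culture time. For Klf10 they were Zfp697 (0.125) and Golim4 (0.152), for Klf2 Camk2a (0.156) and Tubg2 (0.167), for Klf3 Tbck (0.0688) and Atf7 (0.103), and for Klf9 Impad1 (0.0801) and Prdm10 (0.104). For Klf5 they were Cc2d2a (0.154) and Mtap1b (0.18), for Klf7 A630007B06Rik (0.151) and D930015M05Rik (0.158), and for Klf11 Isoc2b (0.218) and Idua (0.226). Among the members themselves the nearest pair was Klf3 and Klf9 (0.212).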

How the data were processed

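Per the labels and the study's methods, total RNA libraries (Illumina TruSeq) were processed by the authors with CASAVA 1.8.2, TopHat2 2.0.8b against mm9 and HTSeq (version, annotation and strand setting not given), and the authors deposited raw read counts per gene symbol. Read type is given as single-end in the labels and paired-end in the methods, and the earliest culture time as 6 h per library and 8 h in the design text. HTSeq's summary rows were left out (reads not placed uniquely: 41.3 to 49.6% of its total), as was the lncRNA table. The members and lists were chosen with earlier results of these data known.

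Counts were tested in R 4.3.3 with edgeR 4.0.16 (TMM, filterByExpr with at least 10 counts and 15 in total, quasi-likelihood test, Benjamini-Hochberg adjustment over all genes) on the libraries of 6, 48 and 72 h, called at an adjusted p of at most 0.05. CPM (counts scaled to a common library size) use TMM over all 8 libraries, with a prior count of 2 in log2 CPM. RPKM use GENCODE M1 exon lengths. Single-time ratios have 95% counting intervals, and 3 counts, the detection floor, equal 0.093 to 0.12 CPM. Figures and sequences were made in Python 3.11.15. The script was tested on simulated data. Genes were named by a rule: the members, the listed genes and the 2 nearest patterns per member.

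The culture times pair the libraries: deviations from the genotype means correlated at 0.713 (6 h), 0.536 (48 h) and 0.841 (72 h) within a time and at -0.696 to 0.169 between times. No 2 libraries held identical counts. Alternatives were other library sets, DESeq2 1.42.0, limma 3.58.1, other normalizations and filters, the time block, time in hours, other call limits and each library left out. Values of 1 listed gene are not reported here.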

Additional observations from a re-analysis of the deposited data

Results flagged for a closer look

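Among the 4 fx/fx libraries, Klf11 was flagged for a library far from the others. Its log2 CPM at 72 h was below the others by 0.894 of the group's whole range, above Dixon's limit for 4 samples. Such a test flags about 1 in 20 groups by chance, and each of these libraries is also a different culture time. The ko/ko library of 72 h was low for Klf11 as well, at 4.41 CPM beside 5.02 CPM in fx/fx.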

How the results depend on the processing

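The genotype call counted 1 of 10 members. Over all 8 libraries it counted 0, with DESeq2 2 (Klf2 and Klf10, beside 6.65% of all genes), with culture time as a replicate block 4 over 6 libraries and 0 over 8 libraries, and at the study's limit 2, against 7.35% of all genes. Leaving out each library in turn gave 0 to 1. Klf10 was lower in all 16 alternatives and called in 9 of them, with an adjusted p of 2.53e-06 to 0.483. The time trend counted 0 members, 3 with DESeq2 (beside 7.51% of all genes), 6 at an unadjusted p under 0.05 and 0 in each leave-one-out fit, and the difference in slope 0 throughout. The cause of these changes was not tested. Beyond the calls given above, the block changed no other member's call.

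Genotype differences near 0 turned over. Klf6 was at -0.052 over all 8 libraries, -0.0078 over the 7 without ko/ko 24 h and -0.063 with the block over 8 libraries, where Klf5 was at -0.071. Leaving out 1 library gave -0.043 to 0.58 for Klf5, -0.086 to 0.26 for Klf6, -0.98 to 0.019 for Klf7 and -0.13 to 0.71 for Klf11. Differences that kept their sign ranged from 1.18 to 1.86 for Klf2, -1.19 to -0.47 for Klf3, -0.81 to -0.44 for Klf4, -0.71 to -0.11 for Klf9 and -0.48 to -0.11 for Klf13. The slope of Klf4 was -0.0083 with library size only, -0.037 with time in hours and -0.0705 to 0.058 with 1 library left out, and the slope difference of Klf9 -0.17 to 0.37. Klf8, Klf14 and Klf17, with 0 to 5 reads in each library, could not be tested at this depth.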
